A study of Homo sapiens with 12 samples.

Results

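Cytosolic ribosomal protein genes encode the proteins of the large subunit (RPL) and the small subunit (RPS) of the ribosome in the cytosol. They were taken as every gene whose symbol on the array platform was RPL or RPS followed by digits, with an optional A, L or X, and as the stalk genes RPLP1 and RPLP2. S6 kinase genes, pseudogenes and antisense genes were left out. Among probe sets paired with 1 symbol the rule found 56 of 19775 genes, and each was read from its brightest probe set by mean log2 signal over all arrays. Of these, 55 were tested, 34 of the large and 21 of the small subunit. RPL3L, a paralogue known from striated muscle, had signals from 0.2 to 3.6 on the 12 arrays and was under the filter on dim genes. Another 15 genes (RPL10, RPL13, RPL13A, RPL17, RPL21, RPL23, RPL28, RPL4, RPL5, RPL7A, RPS13, RPS2, RPS20, RPS26 and RPS3A) were read only by probe sets with several symbols and were left out. RPLP0, RPSA and RPS27A were not analysed here.

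PC9 and HCC827 are established lines from human lung adenocarcinomas that carry an activating mutation of the EGFR gene, and both were grown in RPMI medium with fetal bovine serum. Each line was kept for 8 days either in DMSO, the solvent control, or in 2 µM erlotinib, an inhibitor of the EGFR kinase, with medium and drug renewed halfway. Each of the 4 groups held 3 Affymetrix arrays, and every value below is a MAS5 signal intensity or a log2 difference between signals. Per the treatment notes, DMSO cells were plated in smaller number in dishes and erlotinib cells in larger number in flasks, whereas the series description gives flasks for all. Vessel and plating number cannot be told apart from the drug. Nothing in the labels tells separate cultures from repeat arrays of a single culture, so p-values measure only the spread between these samples, which may be technical.

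Within a group, correlations between arrays across genes were 0.9929 to 0.9973. All 6 epithelial markers checked (EPCAM, KRT7, KRT8, KRT18, KRT19 and CDH1) were bright, with a summed signal between 13165 and 17564 on every array. Of 12 markers of leukocytes, endothelium and fibroblasts 11 were measured. PTPRC, CD3E, CD14, VWF, DCN, COL1A2 and PDGFRB had group means of 7.63 or lower. The summed signal of the 11 was 1003 to 1071 in PC9 with DMSO and 1042.5 to 1174 with erlotinib, and 172 to 195 in HCC827 with DMSO and 629.6 to 702 with erlotinib. Among these markers the collagen gene COL1A1 and LUM rose with erlotinib in both lines, COL1A1 from a mean of 71.0 to 292 in PC9 and from 150.2 to 460.3 in HCC827. In PC9 the endothelial genes CDH5 rose (105 to 178) and PECAM1 fell (835 to 506). Their part in the results on ribosomal proteins was not tested.

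Ribosomal proteins are imported into the nucleus, assembled with ribosomal RNA in the nucleolus and used in near-equal numbers, and unassembled copies are degraded. Most of their messenger RNAs start with a cytosine in an unbroken run of pyrimidines, the 5′ terminal oligopyrimidine (TOP) tract, through which the kinase complex mTORC1 and the RNA-binding protein LARP1 set how much of the message is translated. In EGFR-mutant lung carcinoma cells, EGFR signalling feeds both mTORC1 and MYC, which are known to drive ribosome production, so that ribosomal protein genes are a usual readout of the growth state of such cells.

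The annotated transcript starts of the members were searched for this tract. The motif was a C at the start followed by at least 4 bases that are each C or T, on the transcribed strand only. A start was listed in the RefSeq promoter table (GRCh38.p14) for 48 of the 56 members, and 34 of them (70.8%) had the tract at a listed start, against 5.10% of all 27305 genes with a start. With a slack of 10 bases to either side of the start, the shares were 87.5% and 38.4%. Sequences are shown for the genes on which the results below turn, as 30 bases each, 10 before and 20 from the start on, 5′ to 3′ along the transcript, with the run of pyrimidines at the start in capitals. RPS6 lies on the minus strand at chr9:19380217-19380246, RPL34 on the plus strand at chr4:108620566-108620595, RPL36 on the plus strand at chr19:5690285-5690314, RPL39 on the minus strand at chrX:119791611-119791640 and RPS27 on the plus strand at chr1:153990752-153990781. RPS27L, on the minus strand at chr15:63157458-63157487, and RPL10L, on the minus strand at chr14:46651762-46651791, had no run of pyrimidines at any listed start and are shown for that reason, RPS27L beside its relative RPS27. RPL22L1, on the minus strand at chr3:170870176-170870205, is a paralogue outside the rule.
RPS6: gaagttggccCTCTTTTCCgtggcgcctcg
RPL34: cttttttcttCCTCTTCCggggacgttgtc
RPL36: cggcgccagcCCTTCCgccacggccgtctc
RPL39: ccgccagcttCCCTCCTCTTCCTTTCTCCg
RPS27: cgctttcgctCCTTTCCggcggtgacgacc
RPS27L: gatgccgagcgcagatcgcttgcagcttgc
RPL10L: gtagttaagagagcgcattttgacttcgag
RPL22L1: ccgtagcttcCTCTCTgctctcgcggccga
The run was 9 bases long in RPS6, 8 in RPL34, 6 in RPL36, 19 in RPL39 and 7 in RPS27. A match describes the letters at an annotated start and is no measurement of where these cells start transcription.

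The members were among the brightest probe sets on every array. The mean signal of 51 of the 55 lay above the 95th percentile of all genes tested, and the other members were RPS27L, RPL39L, RPL10L and RPL36A. Over those 51, called the bright members below, the median signal of an array was 3982 to 4261 in PC9 with DMSO and 3634 to 4183 with erlotinib. It was 3010 to 3048 in HCC827 with DMSO and 3112 to 3410 with erlotinib. The highest signal of any probe set on an array was 4850 to 6345, so the members lay close to the top of the scale. That top differed by line, at 6126 to 6345 in PC9 and 4850 to 5379 in HCC827 with DMSO. On erlotinib replicates 1, 2 and 3 it was 5585, 6186 and 5995 in PC9 and 5023, 5593 and 5734 in HCC827. In both lines it ranked the erlotinib arrays as the median of the bright members did. Its part in the differences of the members between lines and between treatments was not tested. The members' share of the summed signal of an array was 3.31% ± 0.12 (SD, n = 3) in PC9 with DMSO, 3.22% ± 0.15 with erlotinib, 2.55% ± 0.03 in HCC827 with DMSO and 2.73% ± 0.09 with erlotinib. The PC9 groups overlapped in this share, whereas each HCC827 erlotinib array, from 2.64% up, lay above each HCC827 DMSO array, at most 2.58%. In lysates of whole cultures, fewer cells of a kind and less of a message per cell cannot be told apart.

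**Figure D1:**
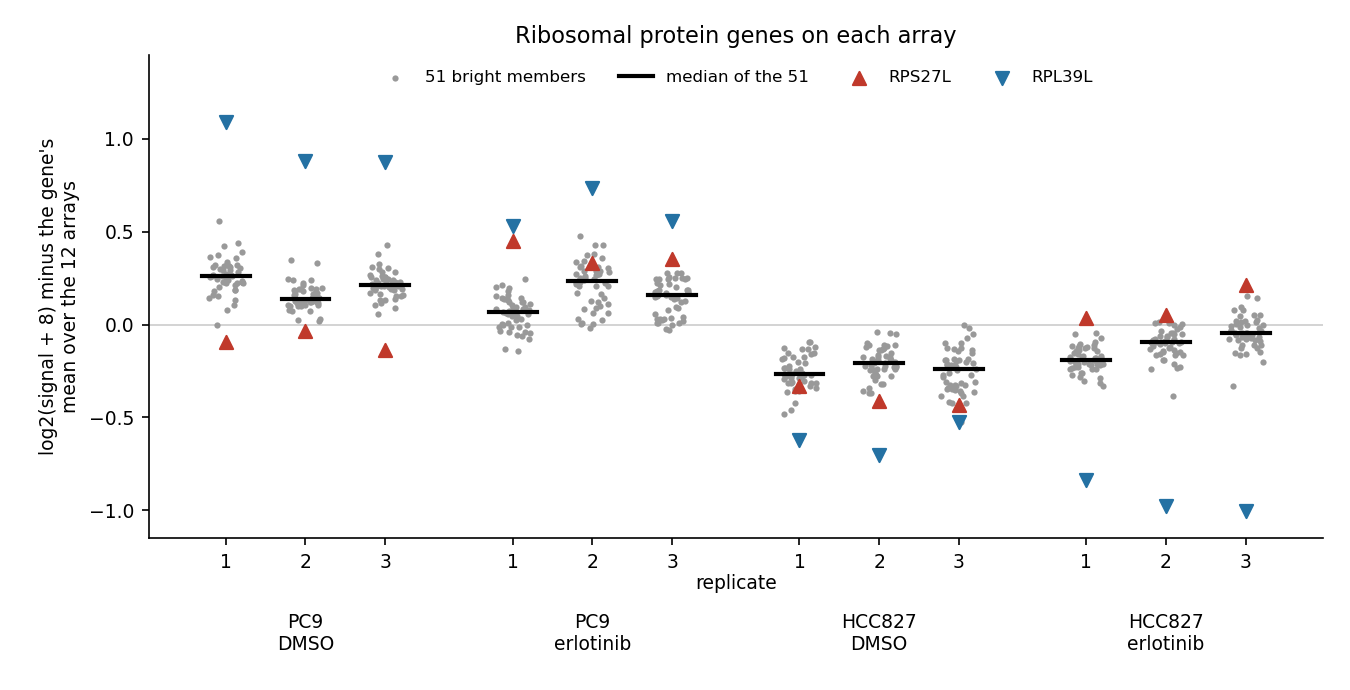
Level of the ribosomal protein genes on each of the 12 arrays, as log2(signal + 8) minus the gene's own mean over the arrays; grey points are the 51 bright members, black bars their median, and triangles RPS27L and RPL39L. The median of the bright members is higher on each of the 6 PC9 arrays than on the HCC827 DMSO arrays, RPS27L is higher on the erlotinib arrays of both lines, and RPL39L is lower on them.

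With DMSO, the lines differed in nearly all members, and PC9 had the higher signals. Adjusted over all genes with limma, 52 of 55 members were higher in PC9 than in HCC827 and 1 was lower, where 36.8% of all genes were higher and 39.4% lower. The median difference was 0.45 on the log2 scale over the members and -0.022 over all 13165 genes tested. The arrays of the lines did not overlap for 53 members with PC9 higher, against 38.0% of all genes, and for 1 with PC9 lower, against 40.7%. RPL7 and RPL10L did not pass. This difference depended on the scaling. Quantile normalization, which gives every array the same distribution of signals, left 31 higher and 6 lower with a median of 0.13. Of all genes 36.8% were then higher and 39% lower.

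The largest differences with PC9 higher in DMSO were in RPL39L, a paralogue of the exit-tunnel protein gene RPL39 known from testis and some tumours, in RPL18 and in RPL8, whose product lies near the peptidyl transferase centre. RPL39L had signals of 1245, 1078 and 1071 in PC9 and of 374, 353 and 401 in HCC827, a log2 difference of 1.57 ± 0.08 (SE, adjusted p = 1.88e-11). RPL18 stood at 5614, 4854 and 5118 in PC9 and at 2974, 2970 and 2910 in HCC827, a difference of 0.81 ± 0.05. For RPL8 the arrays were 4408, 4271 and 4255 against 2468, 2679 and 2359, a difference of 0.78 ± 0.06. In each of these genes the lowest PC9 array lay far above the highest HCC827 array. RPL36A, with signals of 11.6 to 12.3 in PC9 and 27.4 to 32.1 in HCC827, was the member that was lower in PC9, close to the table's median signal of 13. That median was the filter, and the PC9 DMSO mean of 11.8 was under it. RPL36A was thus tested only through groups where it was higher.

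In PC9, 8 days of erlotinib moved the members little. By limma, 12 of 55 fell and 2 rose, and 41 did not pass, while of all genes 28.3% fell and 36.4% rose. The median change was -0.055 over the members against 0.048 over all genes, and 48 of the 55 estimates were below 0. The changes of the 51 bright members ran from -0.29 for RPL36 to 0.11 for RPL37A. DMSO and erlotinib arrays were fully separated for 13 members with erlotinib lower and for 3 with erlotinib higher, where the shares over all genes were 28.4% and 36.6%. None of the 55 passed a limma test against a 1.5-fold change, and 1 had an unadjusted p under 0.05 there. With arrays centred on their median signals the median over all genes became -0.095. Then 37 members fell and 2 rose, while of all genes 37.8% fell and 27.3% rose. With quantile normalization the median was -0.0026 over the members and 0.0026 over all genes, with 30 estimates below 0, and without erlotinib replicate 1 it was -0.013 over the members, also with 30 below 0.

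The members that fell in PC9 were 10 of the large subunit (RPL39L, RPL36, RPL35, RPL27A, RPL18, RPLP2, RPL11, RPL38, RPL27 and RPL6) and RPS21 and RPS6 of the small one. RPL36 had signals of 3493, 3483 and 3453 with DMSO and of 2669, 2953 and 2887 with erlotinib, and fell by 0.29 ± 0.07 (adjusted p = 0.000849). Its treated arrays all lay below the DMSO arrays, which were close to each other. RPL35, at the mouth of the exit tunnel, fell by 0.19 ± 0.06, from 3490, 3202 and 3372 to 2788, 3151 and 2870. RPL27A fell by 0.19 ± 0.05, from 3990, 4154 and 4046 to 3481, 3662 and 3531. RPS21 fell by 0.18 ± 0.06, from 3527, 3029 and 3269 to 2753, 2910 and 3022. The arrays of the treatments did not overlap in RPL35, RPL27A or RPS21, though the gap was narrow for RPL35 and RPS21. Besides RPS27L, described below, the member that rose was the dim RPL36A, with 12.3, 11.6 and 11.6 against 24.2, 29.8 and 31.8 (log2 change 0.88 ± 0.13, adjusted p = 2.55e-05). Its PC9 DMSO mean was under the filter, and it was tested only through groups where it was higher. Another probe set that names RPL36A also carries the symbol of a readthrough transcript and was not used.

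In HCC827 most estimates lay on the other side of 0, while the share of members that rose was near that of all genes. By limma 19 of 55 (34.5%) rose and 1 (1.82%) fell, with 35 not passing, while of all genes 32.3% rose and 19.5% fell. The median change was 0.12 over the members against 0.067 over all genes, and 53 of the 55 estimates were above 0. The bright members ran from 0.011 for RPS4X to 0.30 for RPL34. DMSO and erlotinib arrays were fully separated for 30 members with erlotinib higher and for 1 with erlotinib lower, against 37.7% and 24.5% of all genes. None passed the test against a 1.5-fold change in limma, and 0 had an unadjusted p under 0.05 there. With arrays centred on their medians 4 rose, with a median of 0.045 and 38 of 55 estimates above 0. Of all genes 24.8% rose under that scaling.

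The largest rises in HCC827, after RPS27L, were in RPL34, RPS28, RPL8 and RPS3. RPL34 had signals of 2448, 2657 and 2273 with DMSO and of 2900, 3057 and 3085 with erlotinib, a log2 change of 0.30 ± 0.06 (adjusted p = 0.000981). RPS28 went from 1688, 1772 and 1644 to 1850, 2113 and 2213 (0.27 ± 0.06), and RPL8 from 2468, 2679 and 2359 to 2958, 3022 and 3056 (0.27 ± 0.06). RPS3, which lines the entry of the mRNA channel, went from 3043, 3137 and 2875 to 3401, 3571 and 3635 (0.23 ± 0.06). In none of these 4 genes did the treatments overlap, and in each of them erlotinib replicate 1 was the lowest of the treated arrays. The other members that rose were RPL10A, RPL19, RPL3, RPL30, RPL31, RPL32, RPL35A, RPL37, RPL38, RPS18, RPS19, RPS6, RPS7 and RPS9.

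The rise in HCC827 went with a measure of RNA integrity. The actin 3′/5′ ratio, which compares probe sets at both ends of the actin message, was 2.45, 2.99 and 3.64 on erlotinib replicates 1, 2 and 3, against 2.10 to 2.21 with DMSO. The geometric mean signal of the members was 2522, 2667 and 2760 on the same arrays and 2414 to 2475 with DMSO, so that both measures ranked the erlotinib arrays alike. With the actin ratio as a covariate 4 members rose and 0 fell, while of all genes 19.4% rose and 12.1% fell. Without it these shares were 32.3% and 19.5%, so calls were lost over the whole table. Each HCC827 erlotinib array had a higher ratio than every DMSO array, so ratio and drug cannot be told apart. Without replicates 2 and 3 of that group, which leaves a lone array, the median change was 0.039 over the members and 0.046 over all genes. In PC9 the ratio was 2.09 to 2.35 with DMSO and 2.05 to 2.53 with erlotinib. With the covariate 2 members rose and 13 fell there, while of all genes 36.4% rose and 28.6% fell. In PC9 the order was the other way, since erlotinib replicate 1, with the highest ratio of that line, had the lowest median of the bright members.

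Set side by side, the lines shared few calls. RPS27L rose in both and RPL39L fell in both. RPL38 and RPS6 fell in PC9 and rose in HCC827, 9 members fell in PC9 and did not pass in HCC827, 16 rose in HCC827 and did not pass in PC9, and 25 passed in neither. The test of the difference itself, the PC9 change minus the HCC827 change, was negative for 22 members and positive for RPL36A, where 24.0% of all genes were negative and 21.3% positive. Its median was -0.19 over the members and -0.021 over all genes.

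The largest negative differences were in RPL36 (-0.43 ± 0.09, adjusted p = 0.00139), RPS28 (-0.40 ± 0.09), RPL8 (-0.35 ± 0.08) and RPL38 (-0.33 ± 0.07). RPL38, of the large subunit, showed it on all arrays. Its PC9 signals were 4985, 4923 and 5031 with DMSO and 4510, 4506 and 4541 with erlotinib, and its HCC827 signals 3529, 3499 and 3656 with DMSO and 3698, 4100 and 4398 with erlotinib. The treatments did not overlap in either line, and they lay in opposite order. The count of negative differences was 11 with quantile normalization and 7 with the actin covariate, against 25% and 16.8% of all genes. It was 36 without PC9 erlotinib replicate 2, against 23.6% of all genes. On that array the bright members were highest among the PC9 erlotinib arrays. Without HCC827 erlotinib replicates 2 and 3 the median difference was -0.12 over the members and -0.0065 over all genes.

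**Figure D2:**
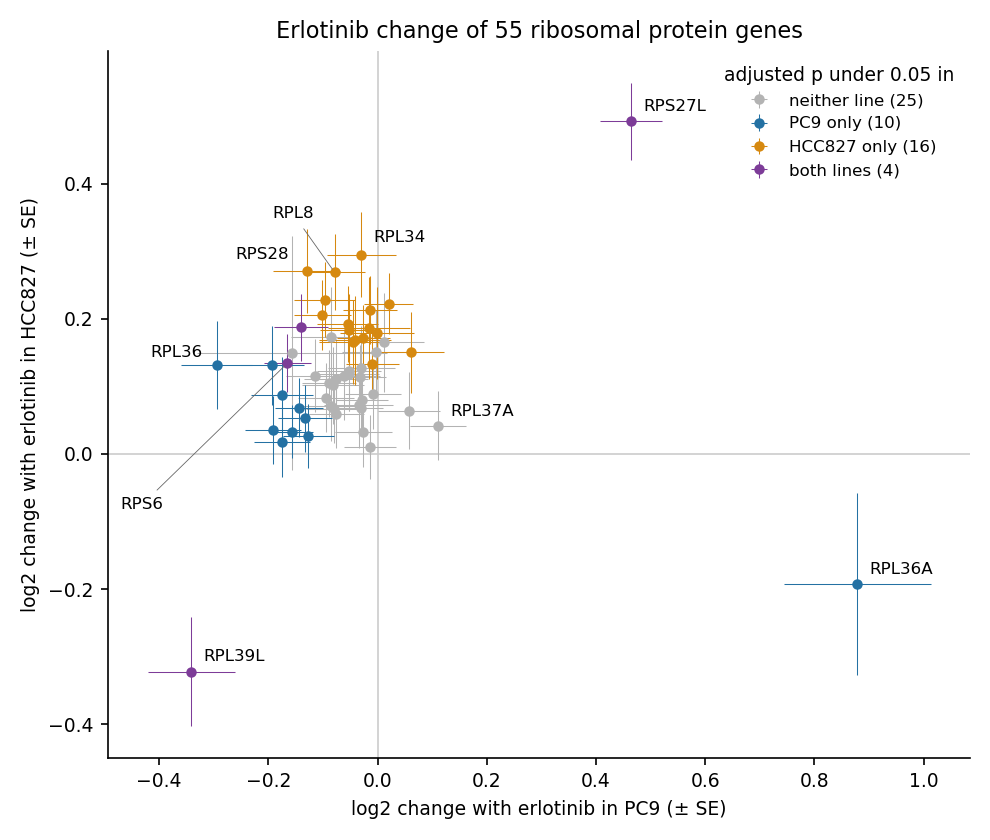
Log2 change with erlotinib of the 55 members tested, PC9 on the horizontal and HCC827 on the vertical axis, with standard errors; colours give the line or lines in which a gene passed an adjusted p of 0.05. Most members sit left of 0 and above 0 within 0.30 of no change, RPS27L lies high in both lines and RPL39L low in both.

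RPS27L, a paralogue of RPS27 known as a target of p53, was the member whose rise was shared by the lines. In PC9 its signals were 1536, 1602 and 1492 with DMSO and 2245, 2061 and 2091 with erlotinib, a log2 change of 0.46 ± 0.06 (adjusted p = 2.33e-06). In HCC827 they were 1301, 1231 and 1211 with DMSO and 1681, 1701 and 1898 with erlotinib, a change of 0.49 ± 0.06 (adjusted p = 2.43e-06). Every erlotinib array of a line lay above all its DMSO arrays, and the changes of the lines differed by -0.028 ± 0.08 (adjusted p = 0.798). A second probe set of the gene rose by 0.60 in PC9 and by 0.62 in HCC827. Another, dimmer probe set rose by 0.36 in PC9 and read 0.12 in HCC827, which did not pass (adjusted p = 0.348).

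RPS27, the relative with a TOP tract at its start, did not pass in either line. It read 3277, 3561 and 3491 against 3411, 3348 and 3345 in PC9 and 3072, 3036 and 3167 against 3174, 3226 and 3324 in HCC827. The log2 ratio of RPS27L to RPS27 within an array was 0.55, 0.46 and 0.48 above the DMSO mean on the PC9 erlotinib arrays and 0.39, 0.38 and 0.50 above it on the HCC827 ones. The DMSO arrays lay within 0.08 of that mean in both lines. The pair thus changed unequally on all 6 erlotinib arrays.

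RPL39L fell in both lines. Its PC9 signals of 1245, 1078 and 1071 with DMSO stood against 843, 972 and 858 with erlotinib, and it fell by 0.34 ± 0.08 (adjusted p = 0.00137). In HCC827 the arrays were 374, 353 and 401 with DMSO and 322, 291 and 285 with erlotinib, and it fell by 0.32 ± 0.08 (adjusted p = 0.00306). No arrays overlapped between treatments. The HCC827 fall no longer passed with the actin covariate (-0.17, adjusted p = 0.278) or without erlotinib replicates 2 and 3 (-0.22, adjusted p = 0.156).

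Its relative RPL39 read 5097, 4778 and 5035 against 4623, 5042 and 4956 in PC9 and 3704, 3778 and 3803 against 3727, 4022 and 4196 in HCC827, and passed in neither line. Within arrays, the log2 ratio of RPL39L to RPL39 relative to its DMSO mean was -0.31, -0.23 and -0.39 on the PC9 erlotinib arrays and -0.21, -0.46 and -0.54 on the HCC827 ones. These values lay below those of all DMSO arrays of their line, which were at least -0.094. RPL10L, another testis-known paralogue, had signals of 34.8 to 64.8 on all arrays and passed in neither line.

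**Figure D3:**
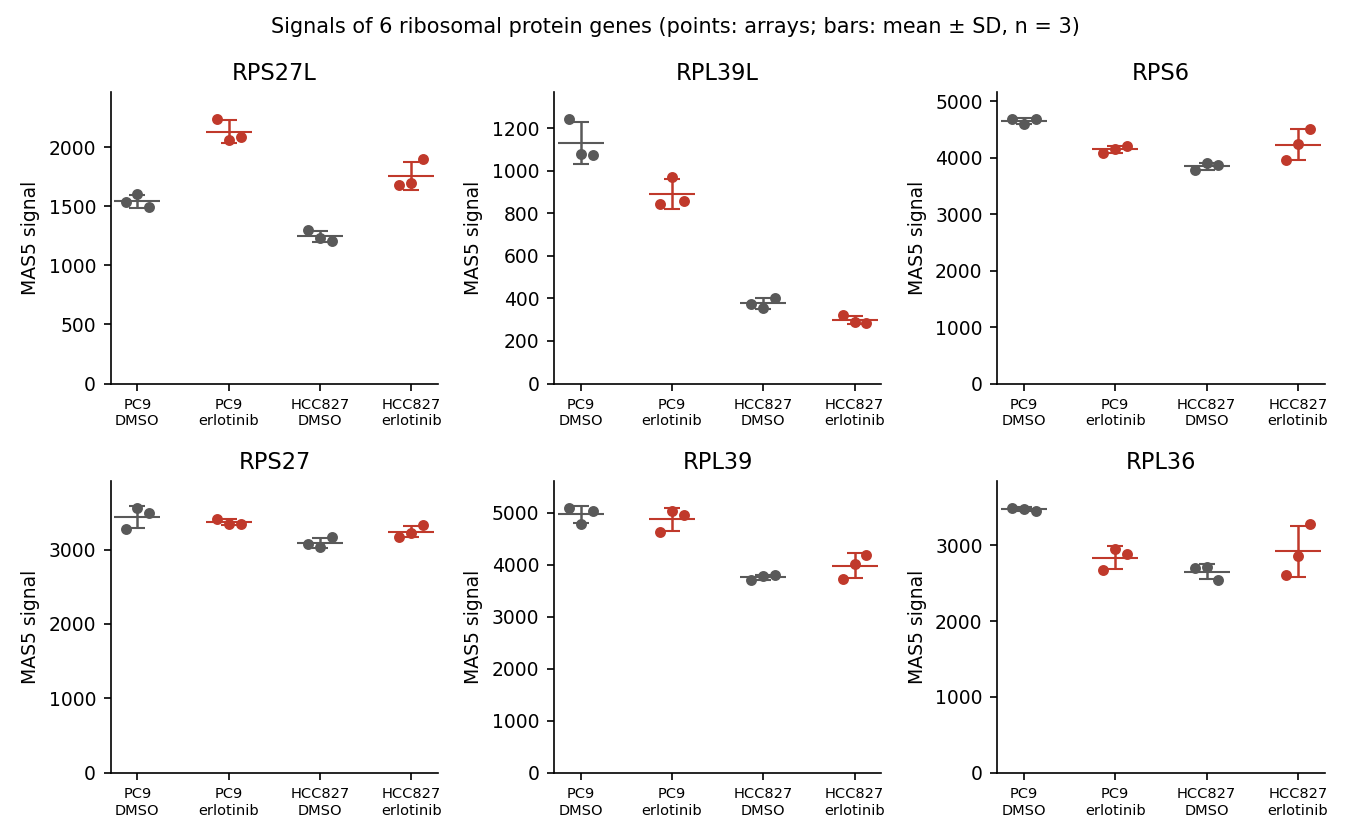
MAS5 signals of 6 ribosomal protein genes on every array (points) with the mean and SD of each group of 3; grey marks DMSO and red erlotinib, and each panel has its own scale starting at 0. RPS27L rises and RPL39L falls in both lines beside RPS27 and RPL39, and the RPS6 and RPL36 arrays lie lower with erlotinib in PC9.

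RPS6, the small-subunit protein that S6 kinases phosphorylate downstream of mTORC1, had signals of 4698, 4596 and 4685 with DMSO in PC9 and of 4092, 4160 and 4210 with erlotinib, and fell by 0.17 ± 0.04 (adjusted p = 0.00300). In HCC827 the arrays were 3786, 3905 and 3867 with DMSO and 3955, 4244 and 4504 with erlotinib, a rise of 0.13 ± 0.04 (adjusted p = 0.0156). The treatments did not overlap in either line. The HCC827 rise was lost with quantile normalization (0.050, adjusted p = 0.188), median centring (0.061, adjusted p = 0.447), variances without a trend (adjusted p = 0.0829), the mean of its probe sets (0.091, adjusted p = 0.140), the actin covariate (0.045, adjusted p = 0.609), without erlotinib replicates 2 and 3 (0.038, adjusted p = 0.575), without erlotinib replicate 3 (0.089, adjusted p = 0.0831) and without DMSO replicate 1 (0.12, adjusted p = 0.0607). The PC9 fall was lost with the mean of its probe sets (-0.069, adjusted p = 0.238). With the members centred on their own median, as described below, neither call held (-0.098, adjusted p = 0.0675 in PC9, and 0.031, adjusted p = 0.602 in HCC827). The other RPS6 probe sets past the filter read -0.047 and -0.048 in PC9 and 0.092 and 0.12 in HCC827, none of them passing.

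The stalk of the large subunit, which recruits elongation factors, was read through RPLP1 and RPLP2. RPLP2 fell in PC9 by 0.16 ± 0.04, from 4249, 3987 and 4150 to 3631, 3796 and 3684, with no overlap, and did not pass in HCC827 (0.033). RPLP1 passed in neither line, with -0.080 ± 0.05 in PC9 and 0.066 ± 0.05 in HCC827. RPL11, which with RPL5 and the 5S RNA binds the p53 regulator MDM2 when unassembled, fell by 0.14 ± 0.04 in PC9, from 3942, 3694 and 3860 to 3322, 3595 and 3488. All its treated arrays lay below the DMSO arrays. In HCC827 it read 0.068 ± 0.04 and did not pass, although its treated arrays, from 3064 up, lay just above the DMSO arrays, at most 3057.

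The role groups are small, and their counts stand against 28.3% of all genes that fell in PC9 and 32.3% that rose in HCC827. Among 6 measured proteins of the exit tunnel and its rim, RPL35 fell in PC9, RPL19 and RPL31 rose in HCC827, and RPL22, RPL23A and RPL39 passed in neither line. Among the measured proteins of the mRNA channel and decoding site, none passed in PC9 and RPS3 and RPS28 rose in HCC827, with RPS15 and RPS23 not passing. RPS12, outside that group, passed in neither line. Of 14 measured genes of Diamond-Blackfan anaemia, an inherited failure of red cell production from ribosomal protein loss, 4 fell in PC9 (RPL35, RPL18, RPL11 and RPL27) and 5 rose in HCC827 (RPL31, RPL35A, RPS7, RPS19 and RPS28), shares near those of all genes. RPS19, the gene most often mutated in that disease, went from 2717, 2953 and 2774 to 3142, 3264 and 3337 in HCC827 (0.21 ± 0.05, adjusted p = 0.00329) and read -0.10 ± 0.05 in PC9, not passing. RPS4X, the X-linked member, changed least in HCC827, from 3302, 3443 and 3278 to 3220, 3330 and 3554 (0.011 ± 0.05), and read -0.014 ± 0.05 in PC9.

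By subunit, 10 of 34 large and 2 of 21 small subunit members fell in PC9, with medians of -0.064 and -0.055. In HCC827, 11 of 34 and 8 of 21 rose, with medians of 0.12 and 0.13. The shares over all genes, for these counts and those by tract, were 28.3% falling in PC9 and 32.3% rising in HCC827. The median change in PC9 was -0.057 over the 34 members with a tract at the start and -0.065 over the 14 without it, and in HCC827 it was 0.11 and 0.17. Of the 34 with a tract 9 fell in PC9 and 9 rose in HCC827, and of the 14 without it 2 fell in PC9 and 7 rose in HCC827. With the slack of 10 bases 42 of these 48 had a tract, so the 14 include members with a tract close to the listed start, such as RPL19 and RPS28. They are thus no set of messages without a TOP tract. The difference between the groups was not tested.

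Several members had other probe sets that moved against the brightest. The 55 genes had 53 further probe sets past the filter. The 27 of them with a mean signal of at least 1000 gave 1 rise and 7 falls in PC9 and 8 rises and 0 falls in HCC827. The 26 dimmer ones gave 8 rises and 6 falls in PC9 and 5 rises and 9 falls in HCC827. Over all probe sets tested singly, 34% rose and 26.2% fell in PC9, and 26.2% rose and 21.9% fell in HCC827. In HCC827, 2 dimmer probe sets of RPL35A fell by 0.63 and fell by 0.53, while its brightest rose by 0.13 ± 0.05. A dimmer probe set of RPS28 fell by 0.55 there, while the brightest rose by 0.27. The call for RPS28 in HCC827 thus holds for its brightest probe set alone, since its remaining probe set read -0.34 (adjusted p = 0.0770).

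Gene lists around the ribosomal proteins, all chosen with earlier results of these data known, were counted in the same fit, in which 28.3% of all genes fell and 36.4% rose in PC9 and 19.5% fell and 32.3% rose in HCC827. Other mRNAs with a TOP tract, for translation factors and the like, were close to the members. Of 19 tested, 7 fell and 0 rose in PC9 (median -0.044), among them EIF3K (-0.28 ± 0.05), NPM1 (-0.21 ± 0.05) and NAP1L1 (-0.21 ± 0.05). In HCC827, 7 rose and 0 fell (median 0.11), among them EIF3H (0.23 ± 0.07), EIF3L (0.22 ± 0.05) and EIF3F (0.21 ± 0.06). These counts depended on the processing. In HCC827, 7 rose with quantile normalization, 0 with median centring and 1 with the actin covariate. In PC9, 5 fell and 2 rose with quantile normalization, and 13 fell with median centring. A tract at a listed start was found in 15 of 16 of these other mRNAs.

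The machinery that makes ribosomes fell in PC9. A list of 27 genes held genes of rRNA transcription, rRNA processing and subunit assembly, and also MYC. Of these 23 fell and 1 rose (median -0.57). The largest falls were in the RNA polymerase I subunit POLR1B (-0.93 ± 0.05) and the assembly factors RRS1 (-0.92 ± 0.08) and TSR1 (-0.92 ± 0.07). In HCC827, 9 fell, led by NIP7 (-0.61 ± 0.06), and 3 rose (median -0.15), among them MYC (0.46 ± 0.08), which fell by 0.66 ± 0.08 in PC9. Of 13 chaperones and nuclear importers that carry ribosomal proteins, general importins among them, 12 fell in PC9 (median -0.38) and 5 in HCC827 (median -0.14), and 0 rose in either. GRWD1, a chaperone of RPL3, fell by 1.04 ± 0.10 in PC9 and fell by 0.74 ± 0.10 in HCC827, and BCCIP fell by 1.03 ± 0.05 and fell by 0.47 ± 0.05. RPL3 itself read -0.052 ± 0.05 in PC9, not passing, and rose by 0.18 ± 0.05 in HCC827.

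Mitochondrial ribosomal proteins, which share no TOP control, fell in PC9 in 64 of 75 genes and rose in 0 (median -0.43), with MRPL35 at -0.91 ± 0.06, MRPS34 at -0.86 ± 0.09 and MRPL12 at -0.83 ± 0.13. In HCC827, 27 fell and 4 rose (median -0.11). A tract at a listed start was found in 6 of 69 of them. Under quantile normalization and median centring the PC9 falls numbered 63 and 73 of the mitochondrial genes. They were 24 and 25 of the list of 27 genes with MYC. Of all genes 30.8% and 37.8% fell under these scalings. Of 4 paralogues of ribosomal proteins outside the rule, RPL7L1 fell by 0.39 ± 0.05 and RPL26L1 fell by 0.15 ± 0.06 in PC9, and RPL22L1 rose by 0.39 ± 0.06 in HCC827. RPL36AL passed in neither line.

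**Figure D4:**
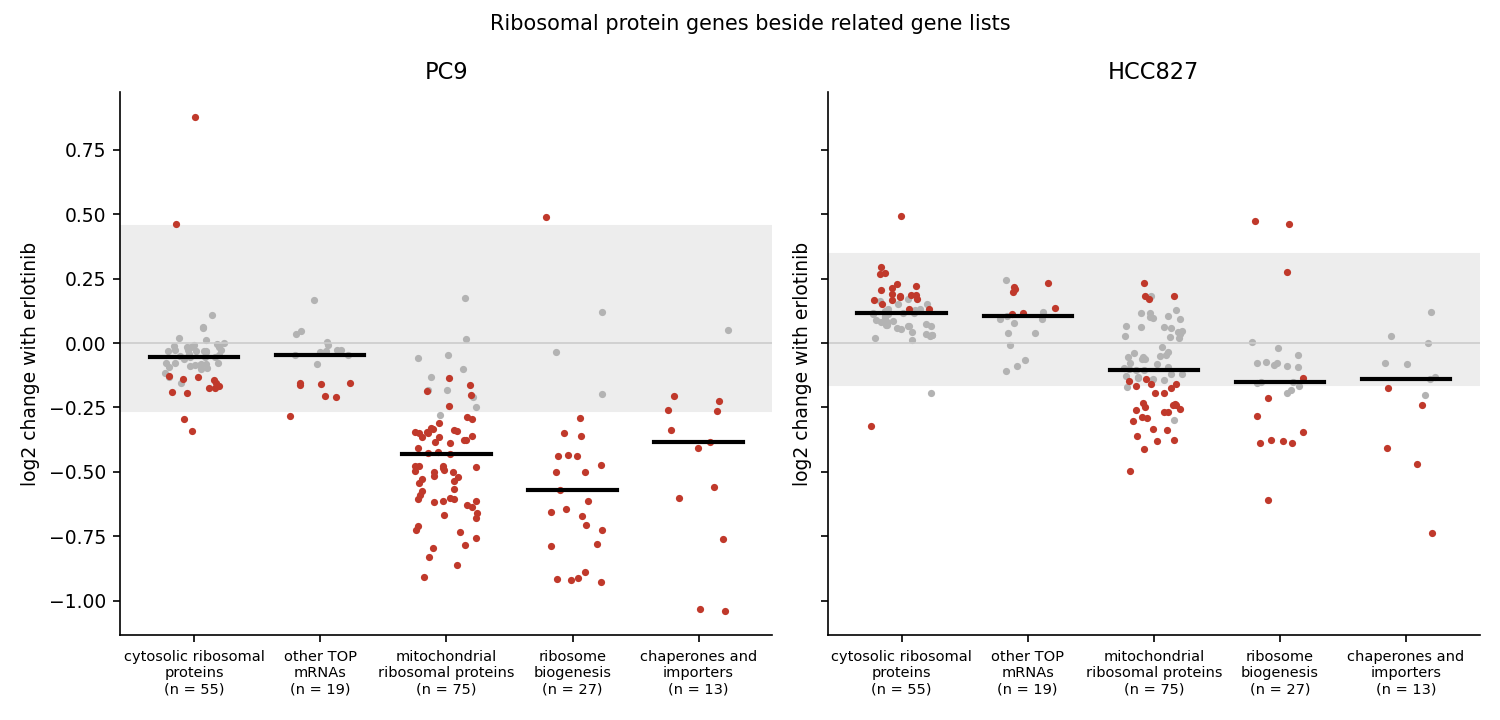
Log2 change with erlotinib of each gene of 5 lists in PC9 (left) and HCC827 (right); red points passed an adjusted p of 0.05, grey points did not, black bars are medians and the grey band spans the middle quartiles of all 13165 genes. In PC9 the cytosolic ribosomal proteins (median -0.055) and other TOP mRNAs (-0.044) lie near 0, while mitochondrial ribosomal proteins, ribosome biogenesis and chaperones lie between -0.38 and -0.57.

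Among 19 genes of mTORC1 and its outputs, 4 rose and 6 fell in PC9, and 3 rose and 4 fell in HCC827. TSC1, part of the complex that restrains mTORC1, rose by 0.71 ± 0.08 in PC9 and by 0.70 ± 0.08 in HCC827, its partner TSC2 rose by 0.67 ± 0.13 in PC9, and the mTORC1 inhibitor DDIT4 rose by 0.62 ± 0.07 in PC9. EIF4EBP1, the translation repressor that mTORC1 inactivates, fell by 0.86 ± 0.08 in PC9 and rose by 0.33 ± 0.08 in HCC827. Of 3 measured snoRNA host genes with a TOP tract, EPB41L4A-AS1 rose in both lines (0.67 ± 0.07 and 0.61 ± 0.07), ZFAS1 rose in HCC827 (0.20 ± 0.05) and GAS5 fell in PC9 (-0.36 ± 0.15, adjusted p = 0.0455).

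The members were also read relative to each other. Each array was shifted so that the median of the ribosomal protein genes was equal on all arrays, a scaling chosen after seeing the data. It removes what the members share, so a more even split of their changes is built in. With erlotinib 5 members were higher and 5 lower in PC9 (all genes 38.6% and 22.3%). In HCC827, 7 were higher and 1 lower (all genes 22.1% and 25.7%). The PC9 members were RPL36A, RPS27L, RPL37A, RPL31 and RPS10 on the higher side and RPL39L, RPL36, RPL35, RPL27A and RPL18 on the lower side. In HCC827 RPS27L, RPL34, RPS28, RPL8, RPS3, RPL37 and RPS19 were higher and RPL39L lower. RPL37A stood 0.18 above the other members in PC9 (adjusted p = 0.00117), from 4090, 3725 and 4029 to 4114, 4493 and 4181. On the deposited scale, where its treated arrays also lay above all DMSO arrays, it did not pass (0.11 ± 0.05, adjusted p = 0.0682). A second bright RPL37A probe set read -0.0011 in PC9 on that scale (adjusted p = 0.990), and a dim one 0.14, not passing. The other RPS10 probe sets read -0.061 to -0.095 in PC9, none passing, against 0.058 for the brightest. The places of RPL37A and RPS10 thus hold for their brightest probe sets. RPS27L and RPL39L were the members on the same side in both lines under this scaling, as on the deposited scale.

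**Figure D5:**
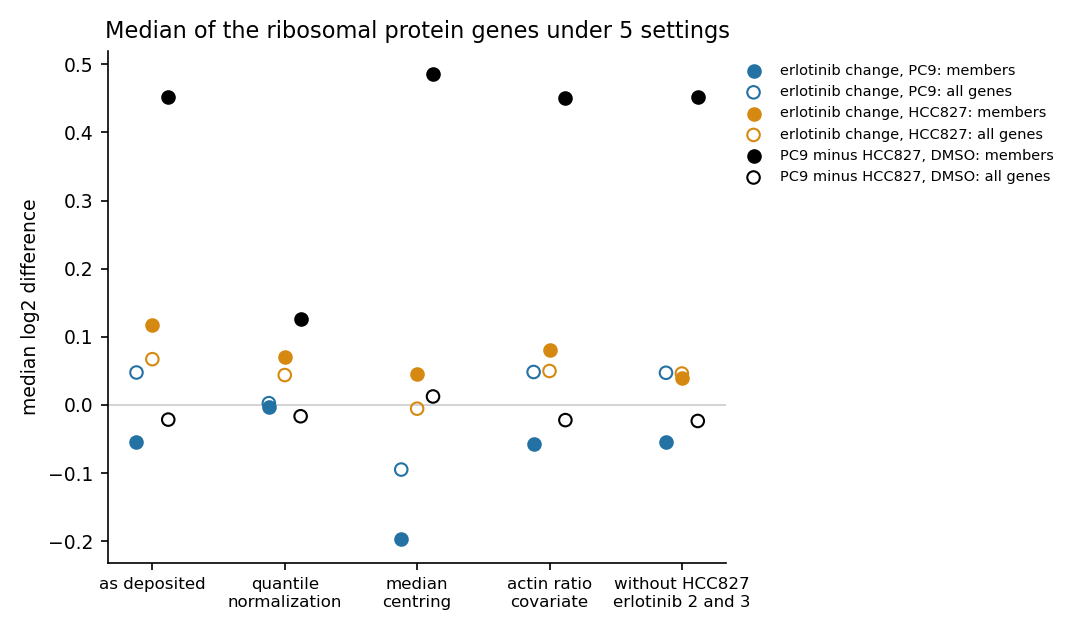
Median log2 difference over the ribosomal protein genes (filled) and over all genes tested (open) under 5 ways of treating the arrays, for the erlotinib change in PC9, the erlotinib change in HCC827 and PC9 minus HCC827 in DMSO. The member median in PC9 runs from -0.0026 with quantile normalization to -0.20 with median centring, that in HCC827 from 0.039 to 0.12, and the difference between lines from 0.13 to 0.49.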

How the data were processed

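RNA was measured in PC9 and HCC827 cells on 12 arrays, 3 per group, grouped by their titles. The table deposited by the authors holds 1 linear MAS5 signal intensity per probe set and array (version not given in the sources used here), per the submitters' processing notes; the values show that each array had been scaled to a 2% trimmed mean of 150. Per the labels, RNA was purified with a column kit, amplified and biotin-labelled. There are no detection calls, and the number of arrays limits the precision.

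Of 54675 probe sets, 62 were controls, 41091 had 1 symbol, 1801 several and 11721 none in the platform annotation. The brightest probe set per gene was kept, and genes whose mean reached a signal of 13, the table median, in at least 1 group were tested (13165). Log2(signal + 8) was modelled by a mean for each of the 4 groups in limma 3.58.1 (R 4.3.3), its variances moderated along a trend with signal. P-values were Benjamini-Hochberg adjusted over all genes and called under 0.05. In results, ± is the SE of a log2 change. Tested on simulated data for the PC9 contrast (13165 genes, 200 changed), this recovered 58% of changes of log2 0.5 and 99% of log2 1, with 6 false calls. Far fewer genes changed there than were called in PC9, and they were drawn from all signals. The shares recovered therefore do not describe the bright members.

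The members and all lists were chosen with earlier results of these data known. Named members were the 5 largest called rises and falls per line, the 4 largest called differences between the changes each way, the 3 largest between the lines in DMSO, members of the stalk, paralogue, 5S and S6 kinase roles, RPS4X and RPS19, and members with opposing probe sets; of other lists, up to 3 called genes each way. Alternatives were other constants (1, 32), scalings, filters, probe-set rules, variance models, a replicate block, a 1.5-fold test, an actin-ratio covariate and left-out arrays. Replicate numbers did not pair the samples: deviations of same-numbered arrays correlated from -0.26 to -0.024 in PC9 and from 0.011 to 0.13 in HCC827.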

Additional observations from a re-analysis of the deposited data

Results flagged for a closer look

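The erlotinib change differed between the lines, by the test of the difference in limma, for 22 members with the more negative change in PC9. Among the named members, these differences (PC9 change minus HCC827 change, log2) were -0.43 for RPL36, -0.40 for RPS28, -0.35 for RPL8, -0.33 for RPL38, -0.33 for RPS3, -0.32 for RPL34, -0.32 for RPL35, -0.31 for RPS19, -0.30 for RPS6, -0.26 for RPS21, -0.23 for RPL27A, -0.21 for RPL11, -0.19 for RPL18 and -0.19 for RPLP2. The difference was 1.07 for RPL36A, a gene near the median signal of the table whose PC9 DMSO mean was under the filter. The HCC827 side of these values moved with the actin 3′/5′ ratio. With that ratio as a covariate 7 members differed with the more negative change in PC9 and 1 with the more positive one. Of all genes 16.8% and 17.2% did so. Groups of 3 arrays are too small to test single arrays for standing apart.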

How the results depend on the processing

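Counts below are members higher or lower by limma, of 55 unless another number is given. With quantile normalization 5 were higher in PC9 (all genes 32.5%), and 3 differences between the changes were positive and 11 negative (19.3% and 25%). In DMSO 31 were higher and 6 lower in PC9 (36.8% and 39%). With median centring 37 were lower in PC9 and 4 higher in HCC827 (all genes 37.8% and 24.8%), with medians of -0.20 and 0.045. The stricter filter kept 53 members and left 1 higher in PC9, 0 positive differences and 0 lower in DMSO, since RPL36A was no longer tested. The shares of all genes were 35.8%, 21.3% and 40.1%. With the mean of all probe sets 7 were higher in PC9, 6 lower in HCC827 and 5 lower in DMSO (all genes 36.1%, 22.7% and 39.3%). Probe sets with a plain name read only 29 members. Of these 6 were higher in PC9 (all genes 37.5%), and 8 were higher and 5 lower in HCC827 (31.9% and 20.4%). Differences were positive for 4 and negative for 12 (23.2% and 22%), and in DMSO 16 were higher and 9 lower (35.1% and 40.8%). Probe sets tested singly, 108 in all, gave 11 higher and 25 lower in PC9, 31 and 10 in HCC827, 6 positive and 37 negative differences, and 83 and 14 in DMSO. Over all probe sets tested the shares were 34% and 26.2%, 26.2% and 21.9%, 21.8% and 18.6%, and 34.9% and 37.6%. Variances without the trend gave 12 higher in HCC827 and 9 negative differences (all genes 31.6% and 22.4%). Against 1.5-fold, 0 passed in PC9, in HCC827 or in the difference, and 3 were higher in DMSO. Of all genes 11.7% were higher and 5.02% lower in PC9, 6.36% and 1.82% in HCC827, and 13.4% higher in DMSO. The actin covariate gave 4 higher and 0 lower in HCC827 and 7 negative differences (all genes 19.4%, 12.1% and 16.8%). Without HCC827 erlotinib replicates 2 and 3 the HCC827 median was 0.039 over the members and 0.046 over all genes. With the members centred, chosen after seeing the data, 5 were higher and 5 lower in PC9 and 7 higher in HCC827, with medians of 0.012 and 0.014. There 4 differences were positive and 4 negative, and 13 members were higher and 14 lower in DMSO. Medians near 0 and a more even split are built into this scaling. Of all genes 28.6% of differences were positive and 12.1% negative, and 16.7% were higher and 63.2% lower in DMSO. The cause of these shifts was not tested.

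Reversals were followed only for 54 values of named members. In HCC827 those reversed were RPL35A (-0.17, mean of probe sets), RPLP2 (-0.39 with that mean, -0.80 with plain probe sets) and RPS28 (-0.21 and -0.55). The RPS28 difference also reversed (0.19 with plain probe sets). Other members turned too, since with the mean of probe sets 11 of 55 HCC827 estimates were below 0, against 2 in the main fit. Leaving out arrays one at a time gave 2 to 3 higher and 9 to 18 lower in PC9, and 12 to 28 higher and 1 lower in HCC827. The shares over all genes were 33.9% to 36.2% and 26% to 28.4% in PC9, and 28.3% to 33.2% and 16.6% to 20.5% in HCC827. There were 1 positive and 16 to 36 negative differences (all genes 18.8% to 21% and 21.1% to 24.3%). In DMSO 52 to 53 were higher and 1 lower (all genes 34.8% to 36.9% and 37.6% to 39.6%). Medians were -0.12 to -0.013 in PC9 and 0.085 to 0.15 in HCC827. The highest count in PC9, 18, and of differences, 36, came without PC9 erlotinib replicate 2, and HCC827 had 12 higher without erlotinib replicate 3. With the replicate number as a block, which does not pair these samples, 2 were higher and 12 lower in PC9 (all genes 35.9% and 28.2%). In HCC827 these counts were 17 and 1 (31.5% and 19.1%). There 25 differences were negative (23.3%) and 53 members were higher in DMSO (36.5%). A constant of 32 kept all counts of the main fit, and a constant of 1 changed only the HCC827 rises, to 18 (all genes 31.2%). With no filter 56 members were tested. Of these 13 were higher in HCC827 and 11 lower in PC9 (all genes 21.5% and 19.6%), and 18 differences were negative (15.7%).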

Other observations

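Some dim probe sets of members rose in both lines by more than the brightest probe set of the same gene; they were chosen after their values were seen. A dim probe set of RPL37 had signals of 254, 228 and 246 with DMSO and 565, 514 and 465 with erlotinib in PC9, and 173, 165 and 155 against 355, 406 and 402 in HCC827. It rose by 1.06 and by 1.2 on the log2 scale, while the brightest RPL37 probe set read -0.014 in PC9, not passing, and rose by 0.21 in HCC827. A further RPL37 probe set rose by 0.43 in PC9 and by 0.98 in HCC827. A dim probe set of RPS29, a zinc-finger protein of the small subunit, rose by 1.05 and by 1.34, from 22.9 to 30.7 up to 51.6 to 72.9 in PC9 and from 26.6 to 32.2 up to 82.7 to 91.2 in HCC827. The brightest RPS29 probe set read -0.11 and 0.12, passing in neither line.

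A dim RPL31 probe set rose by 0.95 in PC9, from 28.1, 29.5 and 35.1 to 71.8, 65.8 and 63.1, and by 0.74 in HCC827, from 169, 154 and 157 to 272, 258 and 287. The brightest RPL31 probe set read 0.061 in PC9, not passing, and rose by 0.15 in HCC827. A dim RPS15A probe set rose by 0.76 in PC9 and by 0.24 in HCC827. In each of these the arrays of the treatments did not overlap in either line. Which transcript forms these probe sets read was not tested.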
